A study of Mus musculus with 8 samples.

Results

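The genes described here encode the enzymes and carriers that break down fatty acids in mitochondria and peroxisomes. They are 37 genes chosen by name, 24 of them mitochondrial, 12 peroxisomal and 1 cytosolic (Acot1). Of these, 34 were measured by a probe set that carries their symbol alone, out of 18820 genes on the array measured in this way. The 34 were 22 of the mitochondrial genes, 11 of the peroxisomal genes and Acot1. Cpt1b, Acadvl and Acot8 were covered only by probe sets shared with other genes and were not analysed here.

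RNA came from white adipose tissue of 8 male mice, 4 in each group, and 1 array was hybridised per mouse. The Sel1l-/- mice carried floxed Sel1l alleles and a Cre recombinase driven by the adiponectin promoter, so Sel1l was targeted in fat cells and not in the vessel, immune and stromal cells around them. The control mice were labelled wildtype (WT), and whether they carried floxed alleles or Cre is not given in the sources used here. Mice of both groups were of a mixed C57BL/6N and C57BL/6J background and spent 5 weeks on a high fat diet (D12492 of Research Diets). Their age and the fat depot are not given in the sources used here. Sel1l protein is the partner of the ubiquitin ligase Hrd1 in clearing misfolded proteins of the endoplasmic reticulum (ER).

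Long-chain fatty acids enter the mitochondrial matrix as carnitine esters. Inside, a repeating cycle of dehydrogenation, hydration, a second dehydrogenation and thiolysis shortens the chain and feeds electrons to the respiratory chain. Peroxisomes run a similar cycle on very long and branched chains with their own enzymes, and pass the shortened products on as carnitine esters. White fat mostly stores and releases fatty acids, while brown and beige fat burn them for heat.

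Sel1l was lower on every Sel1l-/- array. It read 9.56, 9.78, 9.72 and 10.07 (log2 expression) on Sel1l-/- arrays 1 to 4 and 10.48, 10.57, 10.58 and 10.65 on WT arrays 1 to 4, without overlap. The log2 fold change was -0.79 (SE 0.10, limma adjusted p = 0.0109). The places of its probes relative to the deleted exons are not given in the sources used here. The mouse codes of the labels hold a letter and a number, and with either as a block the difference was -0.98 (letter, adjusted p = 0.151) and -0.80 (number, adjusted p = 0.0813). The 10 adipocyte markers all lay between 8.21 and 13.28 on all arrays. Values below are log2 expression, array numbers follow the titles, and a fold change is Sel1l-/- minus WT on the log2 scale unless it is called a fold.

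Of the 34 genes, 1 rose in Sel1l-/- adipose tissue (Hadha) and 0 fell at a limma adjusted p under 0.05. Over all genes tested, 1.04% rose (195 genes) and 0.685% fell (129 genes). After median centring of the arrays, 119 genes were higher and 154 lower over the whole table, and Hadha was no longer past the threshold (adjusted p = 0.0901). At an unadjusted p under 0.05, 8 of the 34 genes (23.5%) were higher and 0 were lower, where 7.15% of all genes were higher and 7.85% lower. The 8 were Hadha, Acot2, Crot, Etfdh, Cpt1a, Slc25a20, Acot1 and Decr1. Of the 34 genes, 0 averaged below the lower quartile of every array, where 3968 of all 18820 genes did. The shares over all genes are thus not those of genes of like brightness, and the list was chosen with earlier results of these data known. The 4 Sel1l-/- arrays lay above all 4 WT arrays for 4 genes (Hadha, Acot2, Etfdh and Crot; 11.8%) and below them for 0, against 5.22% and 5.07% of all genes. The signs were balanced: 17 fold changes lay above 0 and 17 below, with a median of 0.0046, beside -0.0037 over all genes. The median was 0.02 over the mitochondrial genes (12 above 0, 10 below) and -0.08 over the peroxisomal genes (4 above 0, 7 below). Without single arrays these medians ran between 0.0055 and 0.080 and between -0.11 and -0.036. After median centring of the arrays the mitochondrial median was -0.02. In bulk tissue, fewer cells of a type and less RNA per cell cannot be told apart.

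The replicate numbers of the titles paired the arrays by the rule used here, so a fit with the replicate number as a block is given where it changes a call. In that fit 2 of the 34 genes were past the threshold, Acot2 and Pdk4, both higher in Sel1l-/-, beside 1.9% of all genes higher and 1.95% lower. Hadha then had an adjusted p of 0.0607. The block fit called 725 genes over the whole table, against 324 without it. The pairing rule used correlations in these same expression values, so calls gained with the block are not independent of that choice. Same-numbered mice had neither the letter nor the number of their codes in common, and no label says what they share. The deviations of WT 2 from its group mean correlated more with those of Sel1l-/- 4 (0.327) than with those of Sel1l-/- 2 (0.107).

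**Figure D1:**
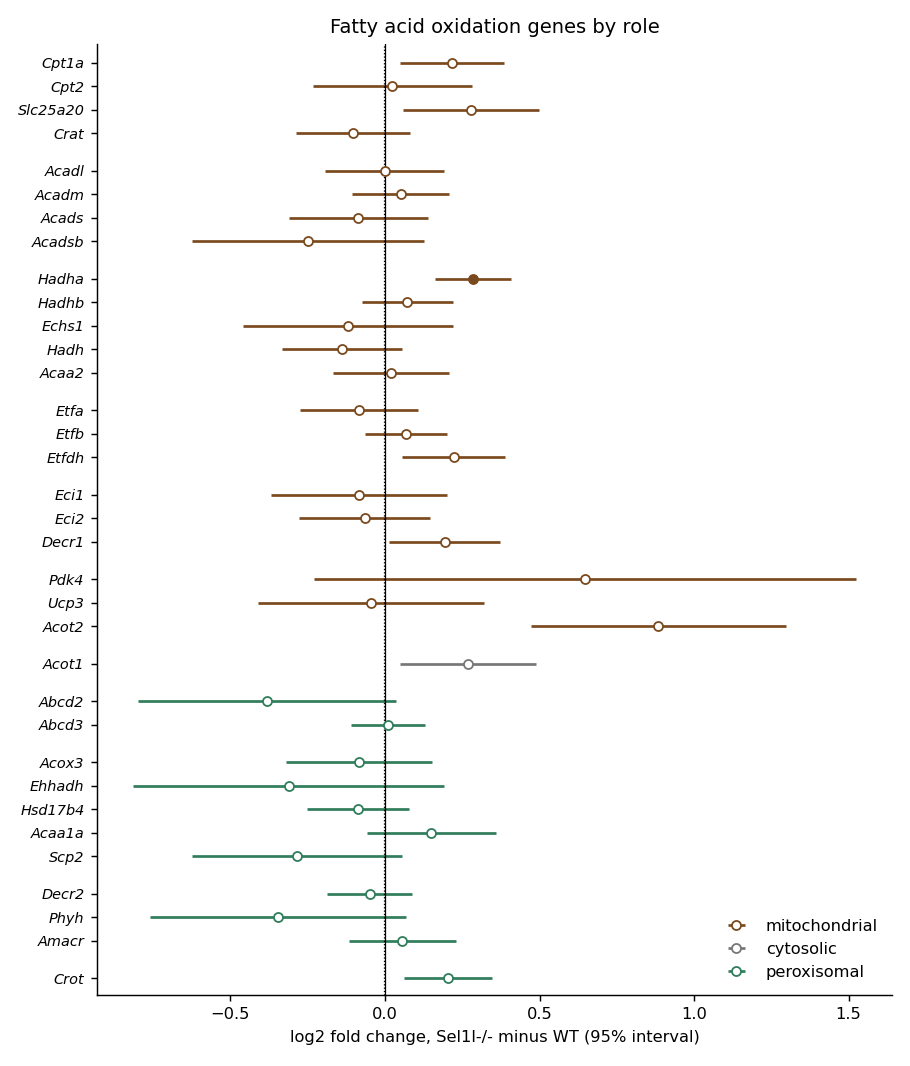
Log2 fold change (Sel1l-/- minus WT, horizontal axis) of the 34 measured genes, grouped by role, with 95% intervals from limma over 4 Sel1l-/- and 4 WT arrays. The filled point marks the gene with an adjusted p under 0.05 (Hadha), and the dotted line marks the median of all genes (-0.0037). Most intervals cross 0, and those of 8 genes lie wholly above it.

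The carnitine shuttle moves long-chain acyl groups into the matrix. Cpt1a, the outer membrane transferase that is the main control point of the pathway, read 11.32, 11.26, 11.20 and 11.39 on the Sel1l-/- arrays and 11.08, 11.01, 10.98 and 11.23 on the WT arrays. WT 4 lay above Sel1l-/- 3, so the groups overlapped by that pair. The log2 fold change was 0.22 (SE 0.07, unadjusted p = 0.0173, adjusted p = 0.211), and each same-numbered pair differed in this direction, by 0.17 to 0.25. Among mice of code letter F (2 Sel1l-/- and 1 WT) the difference was smaller, at 0.065. Slc25a20, the carrier that exchanges acylcarnitines for carnitine across the inner membrane, read 9.90, 9.73, 9.94 and 9.76 on the Sel1l-/- arrays and 9.46, 9.47, 9.81 and 9.46 on the WT arrays. WT 3 alone of the WT arrays reached the Sel1l-/- range. Its log2 fold change was 0.28 (SE 0.10, adjusted p = 0.220). Cpt2, which turns the carnitine esters back into acyl-CoA inside, differed by 0.02 (95% interval -0.23 to 0.28). Crat, the acetyltransferase for short chains that is found in mitochondria and peroxisomes, differed by -0.10 (95% interval -0.29 to 0.08).

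The promoter of Cpt1a is shown as an example of a window that holds AGGTCA, the half-site bound by nuclear receptors such as PPARs and their partner RXR. All windows here run from 250 bases before a RefSeq start to 50 after it (GRCm38.p6). This one lies at chr19:3323051-3323350 on the plus strand, and capitals mark the half-site, read on the opposite strand. A CCAAT box, in lower case, lies nearer the start.
Cpt1a promoter: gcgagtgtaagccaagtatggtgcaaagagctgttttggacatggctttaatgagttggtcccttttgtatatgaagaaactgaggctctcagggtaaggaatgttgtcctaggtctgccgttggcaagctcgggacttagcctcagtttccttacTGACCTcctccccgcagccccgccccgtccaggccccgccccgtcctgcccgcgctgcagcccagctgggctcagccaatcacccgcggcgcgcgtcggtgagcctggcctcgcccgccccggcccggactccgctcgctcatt
RefSeq windows were found for 30 of the 37 genes, 31 windows in all. AGGTCA stood on either strand in 7 of the 31 (22.6%), those of Acadm, Acadvl, Cpt1a, Echs1, Phyh, Scp2 and Ucp3, against 16.3% of 32851 windows of the same length. The same half-site repeated head to tail with 1 base between, the PPAR element in its strict form, stood in 0 of the 31 and in 0.0396% of all windows. TGATGCAA, the core bound by ATF4 with CHOP, stood in 2 of the 31 (Echs1 and Phyh, 6.45%) and in 0.895% of all windows. CCAAT stood in 13 (41.9%) and in 37.4% of all windows. CCAAT followed by 9 bases and CCACG, the ER stress element, stood in 0 and in 0.119%. These matches describe letters within 300 bases, on both strands, and CCAAT is part of the last element.

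The acyl-CoA dehydrogenases open each turn of the mitochondrial cycle, sorted by chain length. None of the 4 measured passed the threshold, and their arrays overlapped. Acadm (medium chains) differed by 0.05 (95% interval -0.11 to 0.21), Acadl (long chains) by -0.00039 (95% interval -0.19 to 0.19) and Acads (short chains) by -0.09 (95% interval -0.31 to 0.14). Acadsb, which acts on short branched chains from amino acids, differed by -0.25 (95% interval -0.62 to 0.13), with Sel1l-/- 4 lowest at 9.86. Without that array it differed by -0.12, and without WT 3 by -0.14.

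The middle of the cycle holds the trifunctional protein, whose alpha subunit Hadha carries hydratase and dehydrogenase activity and whose beta subunit Hadhb carries the thiolase. Hadha read 11.32, 11.26, 11.24 and 11.22 on the Sel1l-/- arrays and 10.94, 10.93, 10.98 and 11.04 on the WT arrays. Every Sel1l-/- array lay above every WT array, and the spread within each group was small (11.26 ± 0.04 and 10.97 ± 0.05, SD, n = 4 each). The rise was 1.22-fold (log2 fold change 0.28, SE 0.05, limma adjusted p = 0.0404). The adjusted p lay close to the threshold. It was above it without any single array except WT 4 (0.0559 to 0.129; 0.0477 without WT 4), and with the code letter (0.464) or the code number (0.188) as a block. The difference itself was 0.25 among mice of letter F, the only letter with both genotypes. It was 0.24, 0.34 and 0.28 among those of code numbers 5, 7 and 9. Each such comparison, here and below, held only 1 or 2 arrays of each genotype, and letter and number comparisons reuse the same arrays.

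Hadhb did not pass the threshold. It read 10.87, 10.80, 10.80 and 10.71 on the Sel1l-/- arrays and 10.65, 10.64, 10.80 and 10.80 on the WT arrays. The log2 fold change was 0.07 (95% interval -0.08 to 0.22, adjusted p = 0.671), and its second probe set gave 0.06. Whether the subunits differ in their change was not tested. The genes lie head to head with starts 273 bases apart. The window of Hadha is shown because most of it also belongs to Hadhb: chr5:30154931-30155230, minus strand, where capitals mark the 228 bases that the window of Hadhb shares, there read on the other strand.
Hadha promoter: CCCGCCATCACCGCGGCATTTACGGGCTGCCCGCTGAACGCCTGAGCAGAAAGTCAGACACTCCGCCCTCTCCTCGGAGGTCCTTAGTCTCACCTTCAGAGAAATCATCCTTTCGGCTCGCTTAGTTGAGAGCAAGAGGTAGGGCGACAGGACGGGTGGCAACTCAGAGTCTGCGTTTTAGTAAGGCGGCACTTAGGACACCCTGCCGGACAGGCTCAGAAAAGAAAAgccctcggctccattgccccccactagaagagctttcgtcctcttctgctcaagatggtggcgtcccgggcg

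The other enzymes of these steps overlapped between groups. Echs1, the hydratase for short chains, differed by -0.12 (95% interval -0.46 to 0.22), and Hadh, the dehydrogenase for short and medium chains, by -0.14 (95% interval -0.33 to 0.06). Acaa2, the mitochondrial thiolase, differed by 0.02 (95% interval -0.17 to 0.21).

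**Figure D2:**
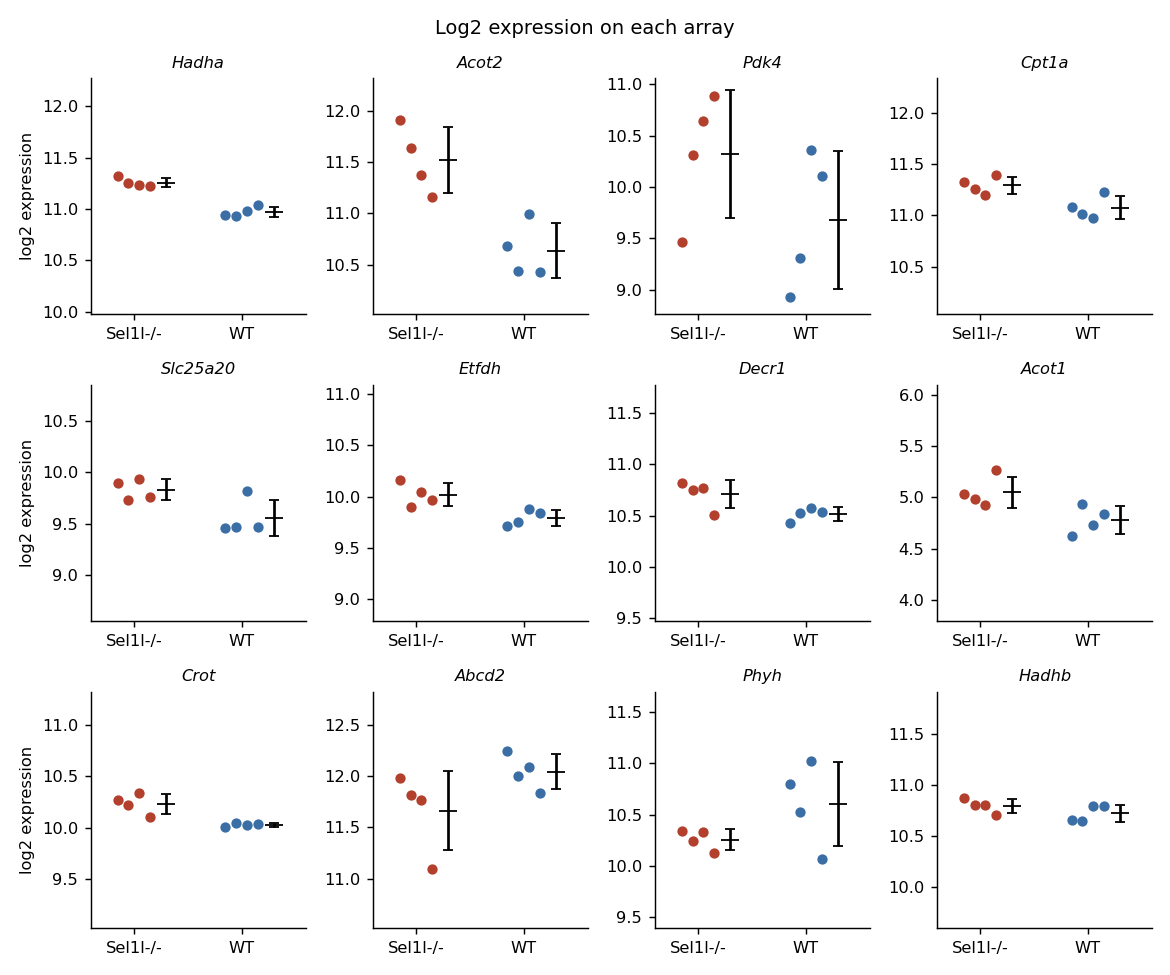
Log2 expression (vertical axis) on each array for 11 genes named with array values and for Hadhb, Sel1l-/- left and WT right. Points are arrays in the order 1 to 4, and bars are mean ± SD (n = 4). Hadha, Acot2, Etfdh and Crot show no overlap between groups.

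Electron transfer flavoprotein carries electrons from the dehydrogenases to its own dehydrogenase, Etfdh, which passes them to ubiquinone. Etfdh read 10.16, 9.90, 10.04 and 9.97 on the Sel1l-/- arrays and 9.71, 9.75, 9.88 and 9.84 on the WT arrays. The groups did not overlap, though Sel1l-/- 2 and WT 3 lay close together. Its log2 fold change was 0.22 (SE 0.07, unadjusted p = 0.0146, adjusted p = 0.197). The flavoprotein's subunits Etfa and Etfb differed by -0.08 (95% interval -0.27 to 0.11) and 0.07 (95% interval -0.06 to 0.20). Among the enzymes for unsaturated chains, Decr1, the mitochondrial dienoyl-CoA reductase, read 10.82, 10.75, 10.76 and 10.51 on the Sel1l-/- arrays and 10.42, 10.53, 10.57 and 10.54 on the WT arrays. Only Sel1l-/- 4 lay within the WT range, and the log2 fold change was 0.19 (SE 0.08, adjusted p = 0.295). The isomerases Eci1 and Eci2, the second of which is also found in peroxisomes, differed by -0.08 (95% interval -0.37 to 0.20) and -0.07 (95% interval -0.28 to 0.15).

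The widest differences were in a thioesterase and a kinase rather than in the cycle's enzymes. Acot2, the mitochondrial thioesterase that splits long-chain acyl-CoA into free fatty acid and CoA, read 11.91, 11.64, 11.37 and 11.16 on the Sel1l-/- arrays and 10.68, 10.44, 10.998 and 10.43 on the WT arrays. All Sel1l-/- arrays lay above all WT arrays, with WT 3 nearest to them. The level was 1.85-fold higher (log2 fold change 0.88, SE 0.18), with an adjusted p of 0.0553, just above the threshold. With the replicate number as a block it was past it (adjusted p = 0.0381), and the same-numbered differences were 1.23, 1.20, 0.37 and 0.74. It also passed without Sel1l-/- 4 (adjusted p = 0.0373) and in 5 other fits (both filters on dim genes, a trended robust prior, array weights and the macrophage covariate), and over all fits its adjusted p ran between 0.00426 and 0.159. The difference was 1.35 among mice of letter F, and 0.82, 1.10 and 0.64 among those of code numbers 5, 7 and 9.

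Pdk4, the kinase that shuts pyruvate dehydrogenase and so turns cells from glucose to fatty acids, varied most between arrays of a group. It read 9.46, 10.31, 10.64 and 10.89 on the Sel1l-/- arrays and 8.93, 9.31, 10.36 and 10.11 on the WT arrays. The groups overlapped widely, and the log2 fold change was 0.65 (SE 0.39, adjusted p = 0.497). Each same-numbered pair differed upward, by 0.53, 1.001, 0.28 and 0.78, and with the replicate number as a block the adjusted p was 0.0469. Among mice of letter F the difference was -0.22, and among those of code numbers 5, 7 and 9 it was 1.12, 0.87 and -0.06. Without WT 1 it was 0.40. Ucp3, an uncoupling protein of muscle and brown fat, differed by -0.05 (95% interval -0.41 to 0.32).

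Acot1, the cytosolic counterpart of Acot2, read 5.03, 4.98, 4.92 and 5.27 on the Sel1l-/- arrays and 4.62, 4.94, 4.73 and 4.84 on the WT arrays. WT 2 lay within the Sel1l-/- range, and all 8 values lay below the arrays' medians of 6.05 to 6.14. The log2 fold change was 0.27 (SE 0.10, unadjusted p = 0.0222, adjusted p = 0.239). Acot1 and Acot2 are close paralogs in the mouse, and how far their probe sets tell them apart was not tested. Their promoter windows are shown side by side, since the genes are neighbours with starts 21641 bases apart on chromosome 12 (GRCm38.p6, both on the plus strand, at chr12:83987611-83987910 for Acot2 and chr12:84009252-84009551 for Acot1). Capitals mark CCAAT, read on the opposite strand in Acot2.
Acot2 promoter: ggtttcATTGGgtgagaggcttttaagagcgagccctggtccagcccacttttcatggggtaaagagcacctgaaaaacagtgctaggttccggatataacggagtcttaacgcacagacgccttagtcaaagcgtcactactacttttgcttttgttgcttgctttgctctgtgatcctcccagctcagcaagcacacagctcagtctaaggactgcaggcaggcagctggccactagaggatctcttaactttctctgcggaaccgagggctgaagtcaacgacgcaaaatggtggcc
Acot1 promoter: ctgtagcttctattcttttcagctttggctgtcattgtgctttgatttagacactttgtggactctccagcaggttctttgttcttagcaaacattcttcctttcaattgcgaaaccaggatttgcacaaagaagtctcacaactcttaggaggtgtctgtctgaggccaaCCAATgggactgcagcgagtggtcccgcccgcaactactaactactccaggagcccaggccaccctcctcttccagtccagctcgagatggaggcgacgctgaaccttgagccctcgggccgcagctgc
Each window holds 1 CCAAT, 244 bases before the start in Acot2 and 79 bases before it in Acot1, and neither holds AGGTCA or TGATGCAA. Their GC content was 51.3% and 52.0%, beside a median of 52.7% over all windows.

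Further thioesterase genes follow in the order Acot4, Acot3, Acot5 and Acot6. These were looked up as neighbours after the values of Acot2 had been seen. None passed the threshold: Acot6 differed by 0.33 (adjusted p = 0.293; 0.49 and 0.0231 with the macrophage covariate), Acot4 by 0.13 (95% interval -0.53 to 0.79), Acot3 by 0.06 (95% interval -0.30 to 0.42) and Acot5 by -0.04 (95% interval -0.25 to 0.16). Acot6 read 7.49, 7.38, 7.20 and 6.96 on the Sel1l-/- arrays and 6.98, 6.84, 7.17 and 6.73 on the WT arrays, in overlap. Acot3 averaged 3.75 on the Sel1l-/- arrays and 3.69 on the WT arrays, and Acot5 averaged 3.92 and 3.96. Both lay below the lower quartile of every array (4.33 to 4.37), so their small differences do not show that they were unchanged.

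**Figure D3:**
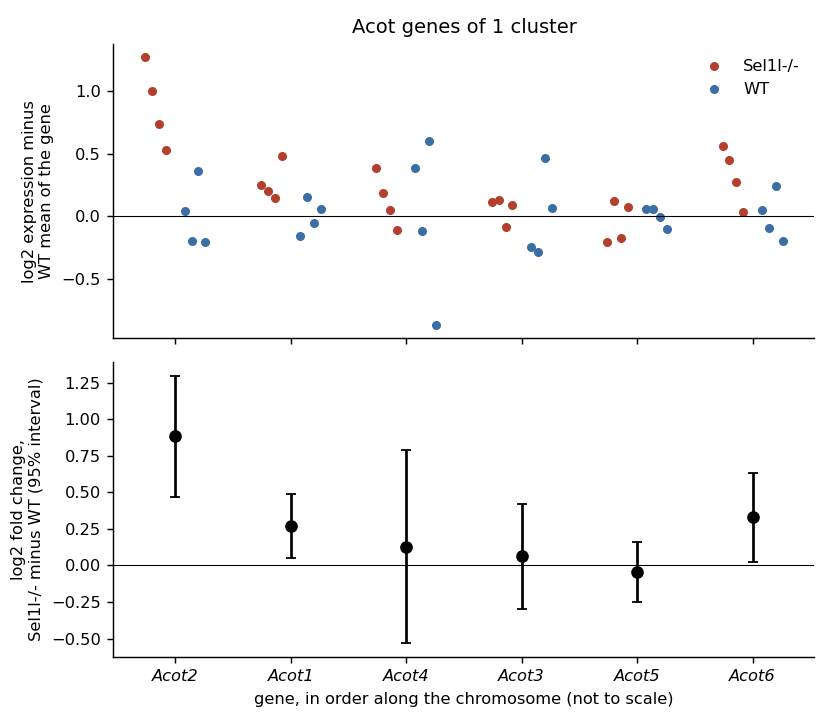
The upper panel plots log2 expression minus the gene's WT mean on each array (Sel1l-/- left of WT) for 6 Acot genes in chromosome order, and the lower panel the log2 fold change with its 95% interval. Acot2 (0.88) stands highest, and the intervals of Acot4, Acot3 and Acot5 cross 0. Acot3 and Acot5 averaged below the lower quartile of every array.

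In the peroxisome, Abcd2 and Abcd3 are membrane transporters for very long-chain and branched acyl-CoA. Abcd2, abundant in adipose tissue of mice, read 11.98, 11.81, 11.76 and 11.10 on the Sel1l-/- arrays and 12.24, 12.004, 12.09 and 11.84 on the WT arrays. Sel1l-/- 1 lay within the WT range, and Sel1l-/- 4 stood lowest. The log2 fold change was -0.38 (SE 0.18, adjusted p = 0.386), the lowest of the 34 genes, and it was -0.19 without Sel1l-/- 4. All 4 same-numbered pairs differed downward, by -0.26, -0.19, -0.32 and -0.74. Abcd3 differed by 0.0096 (95% interval -0.11 to 0.13).

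None of the enzymes of the peroxisomal cycle passed the threshold. Acox3, an oxidase that takes the first step on branched chains, differed by -0.08 (95% interval -0.32 to 0.15). Ehhadh and Hsd17b4, the bifunctional enzymes of the next steps, differed by -0.31 (95% interval -0.81 to 0.19) and -0.09 (95% interval -0.25 to 0.08). The thiolases Acaa1a and Scp2, the second also a sterol carrier, differed by 0.15 (95% interval -0.06 to 0.36) and -0.28 (95% interval -0.62 to 0.06). All of these intervals include 0. Without Sel1l-/- 4, Ehhadh differed by -0.12, Hsd17b4 by -0.04 and Scp2 by -0.16. Ehhadh differed by -0.21 without WT 3 and by -0.47 without WT 2.

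Phyh, the hydroxylase that begins the breakdown of phytanic acid, read 10.34, 10.24, 10.33 and 10.12 on the Sel1l-/- arrays and 10.80, 10.53, 11.02 and 10.07 on the WT arrays. WT 1, 2 and 3 lay above all Sel1l-/- arrays and WT 4 lay below them. Its log2 fold change was -0.35 (SE 0.18, adjusted p = 0.430), -0.21 without WT 3 and -0.52 without WT 4. The same-numbered pairs differed by -0.46, -0.29, -0.69 and 0.05. Amacr, the racemase for branched chains that is also found in mitochondria, differed by 0.06 (95% interval -0.12 to 0.23), and Decr2, the peroxisomal dienoyl-CoA reductase, by -0.05 (95% interval -0.19 to 0.09).

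Crot, the octanoyltransferase that makes shortened chains into carnitine esters for export, was the peroxisomal gene with the smallest p. It read 10.27, 10.22, 10.34 and 10.10 on the Sel1l-/- arrays and 10.0045, 10.04, 10.02 and 10.04 on the WT arrays. The groups did not overlap, and the WT arrays lay within a narrow range. The log2 fold change was 0.20 (SE 0.06, unadjusted p = 0.0100, adjusted p = 0.165), and the same-numbered differences were 0.26, 0.17, 0.32 and 0.07. Its window is shown as the most GC-rich of those printed (69.7%), at chr5:8997097-8997396 on the minus strand, with CCAAT in capitals.
Crot promoter: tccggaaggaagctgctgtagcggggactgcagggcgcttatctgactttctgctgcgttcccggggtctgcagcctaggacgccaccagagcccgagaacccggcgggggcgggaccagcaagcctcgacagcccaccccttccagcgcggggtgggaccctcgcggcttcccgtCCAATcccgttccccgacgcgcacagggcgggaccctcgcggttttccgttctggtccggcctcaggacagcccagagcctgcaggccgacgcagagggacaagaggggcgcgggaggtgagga

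The arrays of a group did not scatter evenly over these genes. Sel1l-/- 4 was the lowest array of its group for 25 of the 34 genes (73.5%), 10 of the 11 peroxisomal and 15 of the 22 mitochondrial ones, against 37.4% of all genes. WT 3 was the highest of its group for 24 of the 34 (70.6%), against 26.8% of all genes. The mean deviation of the peroxisomal genes was 0.03, -0.01, 0.04 and -0.26 on the Sel1l-/- arrays and 0.07, -0.03, 0.19 and -0.03 on the WT arrays. That of the mitochondrial genes was 0.08, 0.05, 0.10 and -0.05 on the Sel1l-/- arrays and -0.08, -0.13, 0.12 and -0.09 on the WT arrays. Sel1l-/- 4 was the highest of its group for 6 genes, Cpt1a, Acot1 and Pdk4 among them.

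**Figure D4:**
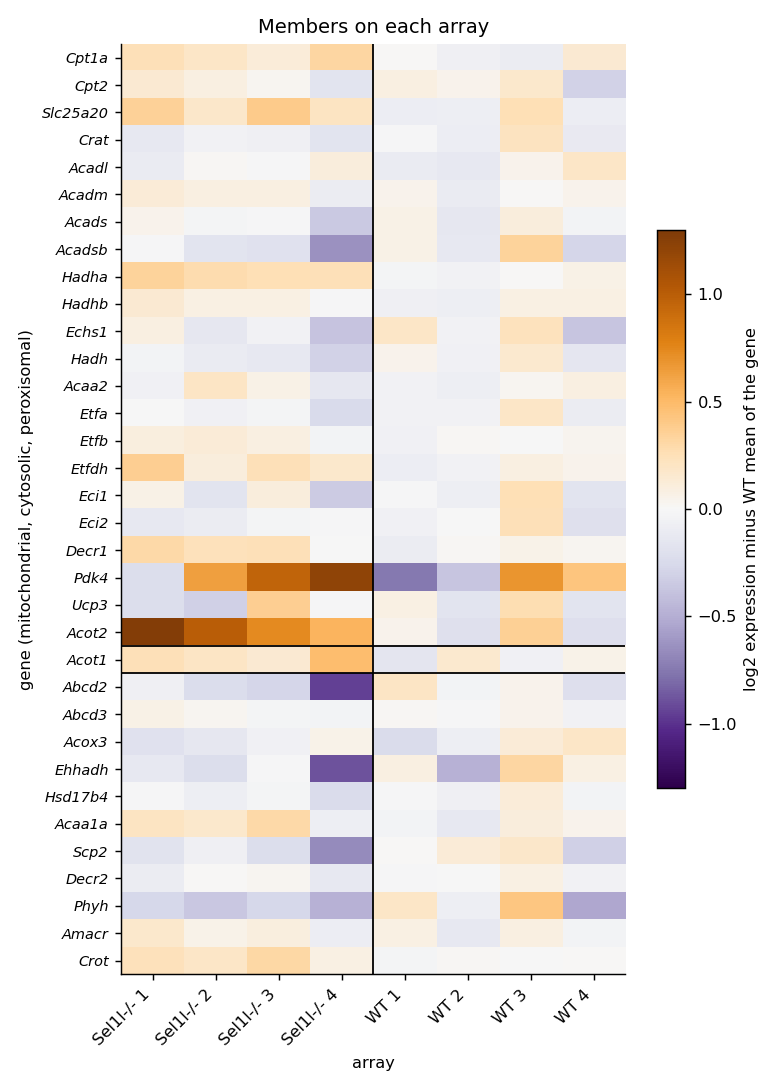
Log2 expression minus the gene's WT mean for the 34 genes (rows: mitochondrial, cytosolic, peroxisomal) on the 8 arrays (columns, Sel1l-/- left of the line). Sel1l-/- 4 is the lowest array of its group for 25 genes and WT 3 the highest of its group for 24.

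The macrophage markers had their extremes on Sel1l-/- 4 and WT 3. Their mean was 10.17, 10.72, 10.58 and 11.33 on the Sel1l-/- arrays and 9.72, 10.66, 9.61 and 10.85 on the WT arrays, so Sel1l-/- 4 stood highest and WT 3 lowest. WT 1 read nearly as low as WT 3, but was the highest WT array for only 1 of the 34 genes. All 10 macrophage markers had fold changes above 0 and 0 passed the threshold (median 0.40). Itgax and Gpnmb each differed by 0.97 (adjusted p = 0.572 and 0.547), by 0.52 and 0.47 without WT 3, and by 0.52 and 0.64 without Sel1l-/- 4. The mean of the 10 adipocyte markers was 12.32, 12.23, 12.29 and 11.83 on the Sel1l-/- arrays and 12.52, 12.38, 12.52 and 12.28 on the WT arrays, in overlap by Sel1l-/- 1 and 3. All 10 fold changes were below 0 and 0 passed (median -0.12). Adiponectin (Adipoq) differed by -0.56 (adjusted p = 0.0753, 0.0204 with the replicate number as a block, 0.0490 with the dimmer 50% of genes left out and 0.0463 with array weights). Slc2a4, the insulin-responsive glucose transporter, differed by -1.02 (adjusted p = 0.176), and by -0.66 without Sel1l-/- 4, where it passed the threshold (adjusted p = 0.0442). The part of the adipocyte markers in the results was not tested. With the macrophage mean as a covariate, 2 of the 34 genes passed, Acot2 (log2 fold change 1.11, adjusted p = 0.00426) and Hadha (0.29, adjusted p = 0.0466). In that fit 550 of all 18820 genes passed, against 324 as reported. The covariate was not balanced between the groups, since all 10 of its markers had fold changes above 0.

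The endothelial markers had 8 of 8 fold changes below 0 (median -0.37), and their means did not overlap, at 9.78 to 10.12 on the Sel1l-/- arrays and 10.28 to 10.50 on the WT arrays. Pecam1, an adhesion molecule of endothelial cells, fell by 0.39 on the log2 scale (adjusted p = 0.0290). Its adjusted p was 0.0503 to 0.102 when any single array was left out, 0.399 with the code letter and 0.153 with the code number as a block. With the replicate number as a block, 3 endothelial markers were lower past the threshold, Pecam1 and, named after their values were seen, Tek and Esam. In that fit 1.95% of all genes were lower past it. The part of the endothelial and thermogenic markers in the results was not tested. Among 10 thermogenic markers 0 passed (median 0.34, 6 above 0), and their means were 6.09 to 6.58 on the Sel1l-/- arrays and 6.05 to 6.34 on the WT arrays. Cox8b, a cytochrome oxidase subunit of brown fat and muscle, and Elovl3, a fatty acid elongase of brown fat, differed by 0.85 (adjusted p = 0.114, and 0.0332 with array weights) and 0.74 (adjusted p = 0.0980). Ppargc1a, a coactivator of mitochondrial genes named here after its values were seen, went the other way, with a difference of -0.70 (adjusted p = 0.287, and 0.0481 with the replicate number as a block). Zic1 alone of these 10 averaged below the lower quartile of every array. Of 12 skeletal muscle markers 0 passed (median -0.01, 6 above 0), with means of 5.21 to 5.36 on the Sel1l-/- arrays and 5.28 to 5.43 on the WT arrays. Myl1 and Pvalb each differed by -0.37 (adjusted p = 0.485 and 0.623). Myl1 was -0.23 without WT 1, and Pvalb was -0.60 without WT 3 and -0.11 without WT 4. The means of 4 muscle markers (Myh4, Myh1, Mylpf and Pvalb) lay below that quartile.

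**Figure D5:**
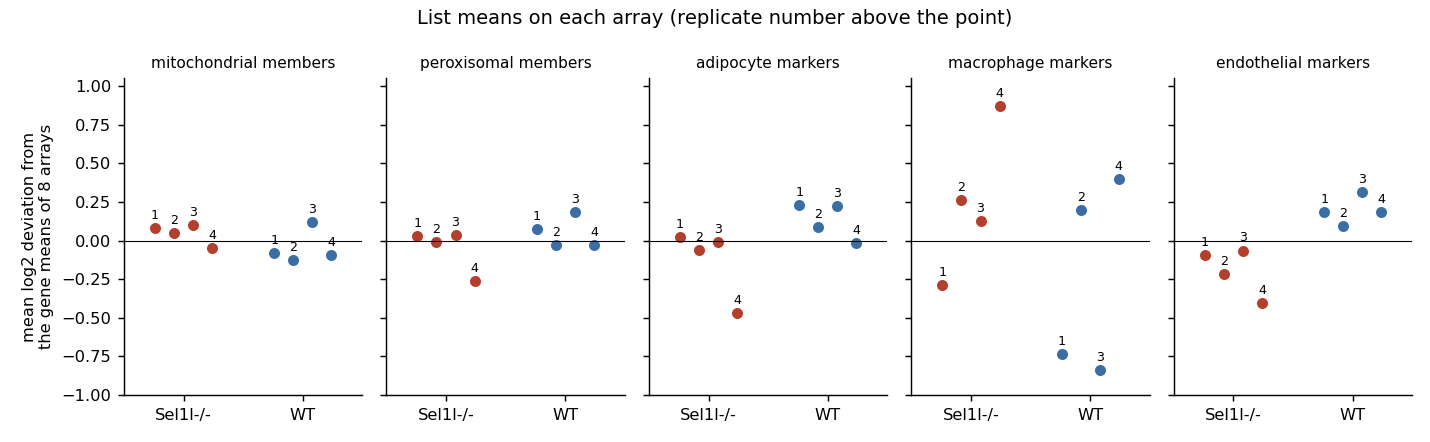
Mean log2 deviation from the gene means over 8 arrays (vertical axis) for mitochondrial and peroxisomal fatty acid oxidation genes and for adipocyte, macrophage and endothelial markers, per array, with the replicate number above each point and Sel1l-/- left of WT. Sel1l-/- 4 is lowest of all arrays for the peroxisomal genes and the adipocyte markers and highest for the macrophage markers.

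Of 37 further enzymes of fatty acid oxidation and ketone metabolism 30 were measured, and 1 rose (3.33%) while 0 fell, beside 1.04% and 0.685% of all genes (median -0.03). At an unadjusted p under 0.05, 6 were higher (20%) and 4 were lower, beside 7.15% and 7.85% of all genes. The 4, named after their values were seen, were Acad9, Acad11, Hsd17b10 and Oxct1, with differences between -0.24 and -0.40. The 6, named in the same way, were Acox2, Acot13, Abcd4, Bdh1, Mlycd and Acot6, with differences between 0.21 and 0.61. Acot13, a further thioesterase, differed by 0.31 (adjusted p = 0.0614). The gene that rose was Acox2, a peroxisomal oxidase for branched chains and bile acid precursors. It read 5.16, 5.33, 5.48 and 5.67 on the Sel1l-/- arrays and 4.79, 4.65, 4.92 and 4.82 on the WT arrays, without overlap and below the arrays' medians. The rise was 1.53-fold (log2 fold change 0.61, SE 0.11, adjusted p = 0.0366). It was past the threshold without Sel1l-/- 1 (0.0308) or Sel1l-/- 4 (0.0455) and not without any of the other 6 arrays (0.0596 to 0.116), nor with the macrophage covariate (0.0531), the code letter (0.442) or the code number (0.153).

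Of 16 regulators of oxidation 14 were measured, and 0 rose or fell (median -0.08, 10 of 14 below 0). At an unadjusted p under 0.05, 3 were lower and 0 higher, beside 7.85% and 7.15% of all genes. These were Nrip1, a corepressor of oxidative genes in fat, at -0.50 (adjusted p = 0.194), Foxo1, a fasting transcription factor, at -0.33 (adjusted p = 0.198), and Rxra, the partner of PPARs, at -0.32 (adjusted p = 0.264). With the replicate number as a block all 3 were lower past the threshold (adjusted p = 0.0283, 0.0427 and 0.0362). In that fit 1.95% of all genes were lower past it. Of 16 peroxisome assembly genes 13 were measured and 0 passed (median -0.07). Pex2, a subunit of the ubiquitin ligase that recycles the import receptor, differed by 0.16 (adjusted p = 0.222), Pex7, a receptor for matrix enzymes, by 0.16 (adjusted p = 0.292) and Pex5, the main import receptor, by -0.15 (adjusted p = 0.361).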

How the data were processed

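Per the labels' protocols, column-purified RNA of checked integrity was made into biotin-labelled whole-transcript cDNA. The deposited values are log2 expression, and RMA is named in the submitters' processing notes. RMA corrects background, normalises arrays by quantiles and summarises probes, so a shift of most transcripts would not show. That the scale is log2 was judged by the range of the values. Medians were 6.05 to 6.14 on the 8 arrays, whose number limits the precision.

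Of 35556 probe sets, 21218 carried 1 gene symbol, 1881 several and 12457 none in the platform annotation, which can be old. Each gene took its brightest probe set with 1 symbol (18820 genes). Groups came from the labels. The test was limma 3.58.1 (R 4.3.3; two-sided lmFit and eBayes, prior degrees of freedom 2.6) with p-values adjusted over all genes by Benjamini-Hochberg, at a threshold of 0.05. The fit was tested on simulated data with independent noise for each gene and planted differences wider than that of Hadha. That test does not cover shifts that many genes of an array share. Intervals are 95% intervals of that fit. Promoter windows are those of RefSeq (GRCm38.p6). Promoters and figures used pandas 2.3.3 and matplotlib 3.10.9 in Python 3.11.15.

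The genes, marker lists and pathway lists were chosen with earlier results of these data known. Array values were given for genes with an adjusted or unadjusted p under 0.05 and for the 2 largest log2 fold changes in each direction. From pathway lists, genes past the threshold were named, or else the 3 smallest p, and from marker lists those past it, or else the 2 largest fold changes. Nothing says that same-numbered mice share a litter or cage, but their deviations from the group mean over all genes had correlations of 0.518, 0.107, 0.363 and 0.524, each over 0.1, against -0.489 to 0.328 for other pairs, and the replicate number was tried as a block. So were the letter of the mouse code (E for WT 1 to 3, F for WT 4 and Sel1l-/- 1 and 2, G for Sel1l-/- 3 and 4) and its number (5, 7 or 9), whose meaning is not given in the sources used here. Other alternatives were array centring, filters on dim genes, the mean of a gene's probe sets, a trended robust prior, array weights, the macrophage mean as a covariate and leaving out each array.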

Additional observations from a re-analysis of the deposited data

Results flagged for a closer look

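In 5 of 110 groups of 4 arrays, over 55 genes, 1 array stood far from the others (Dixon test, 95% level), and chance alone gives about 1 in 20. The carnitine carrier Slc25a20 read 9.81 on WT 3, where the nearest WT array read 9.47. The short-chain dehydrogenase Acads read 10.10 on Sel1l-/- 4, where the nearest Sel1l-/- array read 10.42. Of the marker genes, Slc2a4 read 8.21 on Sel1l-/- 4 (nearest 9.58), Elovl3 read 5.73 on Sel1l-/- 1 (nearest 4.95) and Pvalb read 4.17 on Sel1l-/- 4 (nearest 3.53).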

How the results depend on the processing

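Of the 34 genes, 1 was past the threshold as reported. The number was 0 with arrays centred and with the code letter or code number as a block. It was 2 with the replicate block, with the dimmest 25% or dimmer 50% of genes left out, with the trended robust prior, with array weights and with the macrophage covariate, and 0 to 1 without single arrays. Over all genes the count was 324 as reported, 725 with the replicate block, 20 with the letter, 11 with the number, 566 with array weights, 550 with the macrophage covariate and 100 to 336 without single arrays. It was 273 with arrays centred and 325 with the trended robust prior. With the dimmest 25% or dimmer 50% of genes left out it was 340 of 14115 genes and 412 of 9410. The median of the peroxisomal genes was 0.089 with the letter block. Sel1l was -0.98 with the letter block and -0.80 with the number block, no longer past the threshold. The letter holds both genotypes only in F, which leaves 3 arrays. Among the genes named, the replicate block changed the calls of Hadha, Acot2, Pdk4, Adipoq, Ppargc1a, Tek, Esam, Nrip1, Foxo1 and Rxra and no other. For the remaining changes the cause was not tested.

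With arrays centred, Cpt2 was -0.018, Acaa2 -0.023 and Abcd3 -0.032. With the letter block, Crat was 0.028, Acads 0.051, Acadsb 0.19, Echs1 0.35, Hadh 0.077, Acaa2 -0.013, Etfa 0.063, Eci1 0.12, Eci2 0.084, Pdk4 -0.22, Abcd2 0.058, Scp2 0.18, Decr2 0.0019, Phyh 0.22, Myl1 0.29, Itgax -0.87, Gpnmb -0.65 and Acot5 0.066. With the number block, Acadl was 0.016 and Ucp3 0.012. With array weights, Acadl was 0.029 and Ucp3 0.00051. With the macrophage covariate, Acads was 0.023, Echs1 0.078, Eci1 0.059, Ucp3 0.038 and Itgax -0.011. Without single arrays, Cpt2 ran between -0.076 and 0.088, Acadl between -0.041 and 0.062, Acads between -0.13 and 0.0020, Acaa2 between -0.041 and 0.073, Eci1 between -0.14 and 0.0038, Eci2 between -0.13 and 0.017, Ucp3 between -0.18 and 0.044, Abcd3 between -0.0099 and 0.024, Acot3 between -0.033 and 0.22, Acot4 between -0.16 and 0.33, and Acot5 between -0.10 and 0.0083.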
